A study of Mus musculus with 6 samples.

Results

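The insulin-like growth factor (IGF) system was described in RNA of the cardiac side population (SP), the heart cells that extrude the Hoechst DNA dye. The description covers 10 genes chosen by name from the 50600 genes of the deposited count table. They are the ligands *Igf1* and *Igf2*, the receptors *Igf1r* and *Igf2r*, and the binding proteins *Igfbp2*, *Igfbp3*, *Igfbp4*, *Igfbp5*, *Igfbp6* and *Igfbp7*. At least 1 read was counted on 9 of the 10 genes, and those 9 passed the filter on low counts and were tested among 13475 protein-coding genes. The exception was *Igfbp2*. Freshly sorted SP cells came from C57BL/6NRj (wt) mice and from mice of the strain C57BL/6Flt3Ltml/mx on a C57BL/6N background, labelled flt3L-/-. All mice were 8 to 12 weeks old, and no group received a treatment that the labels name. The flt3L-/- strain is a knock-out of the Flt3 ligand gene. There were 6 libraries, 3 per group, each from the pooled hearts of 4 mice, so that single mice are not resolved. A wt and an flt3L-/- sort were made on each of 3 dates, 2 pairs in 2016 and 1 in 2017, and the pairs are numbered 1, 2 and 3 by date.

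IGF1 and IGF2 are secreted growth factors that act through the tyrosine kinase receptor encoded by *Igf1r*, which feeds the PI3K and Akt pathway through the insulin receptor substrate proteins. The product of *Igf2r* has no kinase and carries IGF2 to lysosomes. The binding proteins hold the ligands outside cells, and secreted proteases release the ligands from them. In the heart, IGF signaling is known for effects on growth and cell survival.

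Total counts per library lay between 24370913 and 31145519. Levels are CPM, the reads of a gene as a fraction of the library with trimmed mean of M-values (TMM) scaling, and levels of different genes are compared only as CPM per kilobase (kb) of exon. The upper limit that a count of 0 allows is that of 3 reads, 0.109 to 0.127 CPM, and covers counting error only. *Flt3l*, the targeted gene, had 8.67, 10.8 and 12.1 CPM in wt 1, 2 and 3 and 13.6, 12.4 and 14.45 CPM in flt3L-/- 1, 2 and 3. Its reads were thus not lower under the flt3L-/- label, and flt3L-/- names below are those of libraries labelled so. *Flt3l* shares 22.1% of its exon bases with Gm45713, and whether the reads lie outside the deleted part was not tested. Endothelial markers were abundant in every library (9 genes, summed level 8305 to 13030 CPM), as were the SP genes *Abcg2* and *Ly6a*. *Pecam1*, which encodes CD31, had 873 to 1524 CPM, although a CD31-negative fraction of the SP is one of the sorts the methods describe. Myeloid markers set libraries apart. The 5 neutrophil genes summed to 1.94 CPM in wt 1 and 5.98 CPM in flt3L-/- 3, and to between 82.4 and 220.2 CPM in the other 4 libraries. The 8 macrophage and monocyte genes summed to 44.0 and 101 CPM in those same libraries and to 324 CPM or more elsewhere. This sum is led by *Lyz2*, with 17.1 CPM in wt 1, 67.4 CPM in flt3L-/- 3 and up to 1527 CPM elsewhere. *C1qa* and *C1qb* were instead lowest in wt 1 and flt3L-/- 1, while the other genes of the list were lowest in wt 1 and flt3L-/- 3. The libraries wt 1 and flt3L-/- 3 belong to different pairs. Fold changes of the members with a pair left out are given beside the results that they change.

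Of the 10 genes, the detected binding proteins had the highest mean levels, and *Igfbp7* stood above all others. By mean CPM per kb over the 6 libraries, the order was *Igfbp7* (540.0), *Igfbp5* (61.3), *Igfbp4* (56.6), *Igfbp3* (52.55), *Igfbp6* (32.0), *Igf1* (13.9), *Igf2r* (10.1), *Igf2* (1.49) and *Igf1r* (1.025), with *Igfbp2* at 0. Ranges over the libraries did not overlap between *Igfbp7* and *Igfbp5*, between *Igf2r* and *Igf2*, or between *Igf1r* and *Igfbp2*. All other neighbours overlapped. *Igfbp5* was above *Igfbp4* in 2 of 6 libraries, so the order of *Igfbp5*, *Igfbp4* and *Igfbp3* is not fixed by these data, and with the longest coding transcript as the length it was *Igfbp3* (67.9), *Igfbp4* (65.3) and *Igfbp5* (61.3). *Igf2* was above *Igf1r* in 6 of 6 libraries although their ranges overlapped.

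**Figure D1:**
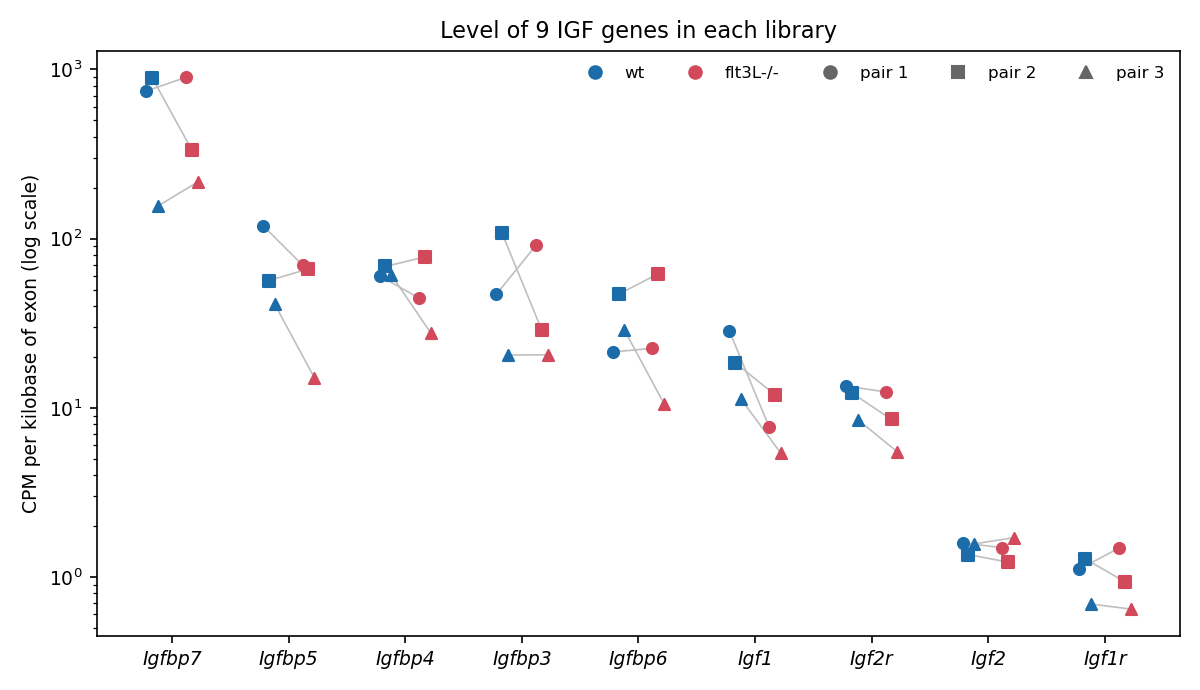
Level of the 9 detected IGF genes in CPM per kb of exon on a log axis, with wt libraries in blue, libraries labelled flt3L-/- in red, a marker shape for each sorting pair and a grey line joining the libraries of a pair. *Igfbp7* lies between 156 and 898 CPM per kb, above every value of the other genes, and the points of wt and flt3L-/- overlap for each gene.

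*Igf1*, the ligand that growth hormone induces, had the clearest genotype difference of the 10 genes. Its level was 281, 182 and 111 CPM in wt 1, 2 and 3 and 76.5, 118 and 53.5 CPM in flt3L-/- 1, 2 and 3. The flt3L-/- library was the lower one in 3 of 3 pairs, by 1.88, 0.62 and 1.06 on the log2 scale, while the groups overlapped because flt3L-/- 2 lay just above wt 3. The mean of wt was 192 ± 85.4 CPM and that of flt3L-/- 82.8 ± 32.9 CPM (SD, n = 3 each). The log2 fold change was −1.18 (standard error 0.27, 95% interval −1.89 to −0.48), with an unadjusted p of 0.00808 and an adjusted p of 0.973 in edgeR's quasi-likelihood test. *Igf1* ranked 36 by p-value among the 13475 genes. With DESeq2 the log2 fold change of *Igf1* was also −1.18 and the adjusted p was 0.0492, so its call depends on the tool. Without pair 1, 2 or 3 the log2 fold change was −0.84, −1.49 and −1.25, with an adjusted p of 0.510 or more in edgeR. *Igf1* (ENSMUSG00000020053) lies on chromosome 10 of GRCm38 from 87858265 to 87937042.

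*Igf2*, an imprinted gene that drives fetal growth, was low and nearly even. It had 9.10, 7.76 and 8.98 CPM in wt and 8.52, 7.0 and 9.78 CPM in flt3L-/- 1, 2 and 3. No library stood apart, and the highest value was 1.40 times the lowest. The log2 fold change was −0.039 with a 95% interval from −0.59 to 0.51. Per kb, *Igf1* was 12.9 ± 5.38 times *Igf2* (SD, n = 3) in wt and 6.04 ± 3.39 times (SD, n = 3) in the libraries labelled flt3L-/-. *Igf2* (ENSMUSG00000048583, chromosome 7, 142650766 to 142666816) shares 62.8% of its exon bases with Gm49394, a gene that is not among those counted, and 1.71% with the antisense gene *Igf2os*, which had at most 0.396 CPM.

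The 2 receptors differed in level and were alike in profile. *Igf1r* had 18.7, 21.5 and 11.6 CPM in wt 1, 2 and 3 and 24.8, 15.7 and 10.8 CPM in flt3L-/- 1, 2 and 3. These values went in different directions in the pairs, and both libraries of pair 3 were the lowest. Its log2 fold change was −0.046 (95% interval −0.62 to 0.53), and without pair 1, 2 or 3 it was −0.28, 0.14 and −0.019. *Igf2r* had 125, 114 and 79.2 CPM in wt and 115.5, 79.35 and 51.1 CPM in flt3L-/- 1, 2 and 3. It was lower in 3 of 3 pairs, by 0.12, 0.52 and 0.63 on the log2 scale, with overlapping groups. The log2 fold change of *Igf2r* was −0.42 (standard error 0.16, 95% interval −0.83 to −0.017), with an unadjusted p of 0.0439 and an adjusted p of 0.973 in edgeR's quasi-likelihood test. Its unadjusted p was above 0.05 without pair 2 (log2 fold change −0.39) and without pair 3 (−0.32). Per kb, *Igf2r* was 11.3 ± 1.52 times *Igf1r* in wt and 8.66 ± 0.376 times in the libraries labelled flt3L-/- (SD, n = 3 each). *Igf1r* (ENSMUSG00000005533) lies on chromosome 7 from 67952827 to 68233668, and *Igf2r* (ENSMUSG00000023830) on chromosome 17 from 12682406 to 12769664, with no exon bases in common with another annotated gene.

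Of the binding proteins, *Igfbp7* and *Igfbp3* shared a profile over the libraries that did not follow genotype. *Igfbp7* encodes a secreted protein of vessel walls with low affinity for IGFs. It had 902, 1076 and 188.5 CPM in wt 1, 2 and 3 and 1085, 404 and 261 CPM in flt3L-/- 1, 2 and 3. *Igfbp3*, whose product is the main IGF carrier of the blood, had 146, 337 and 64.1 CPM in wt and 285, 90.3 and 64.4 CPM in flt3L-/- 1, 2 and 3. For both genes wt 1, flt3L-/- 1 and wt 2 were above the other 3 libraries. The within-pair log2 differences were 0.27, −1.42 and 0.47 for *Igfbp7* and 0.96, −1.90 and 0.0057 for *Igfbp3*. The fitted log2 fold changes were −0.21 (95% interval −1.31 to 0.89) for *Igfbp7* and −0.28 (−1.82 to 1.25) for *Igfbp3*, and without pair 2 they were 0.35 and 0.47. Pair 2 set the sign for both. Without pair 1 they were −0.47 and −0.95, and without pair 3 they were −0.57 and −0.47. *Igfbp7* shares 7.03% of its exon bases with *Polr2b*, an RNA polymerase II subunit gene on the other strand that had 105 to 176 CPM, and reads in those bases cannot be told apart without strand.

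*Igfbp4* and *Igfbp6* were the next closest binding proteins in profile, but they went in opposite directions in pair 1. As many as 1498 other genes were closer to *Igfbp4* than *Igfbp6* was. *Igfbp4*, an inhibitor of IGF action that the protease encoded by *Pappa* cleaves, had 266, 302.5 and 269.5 CPM in wt and 196, 344 and 122 CPM in flt3L-/- 1, 2 and 3. The wt values had an SD of 20.1 CPM while the flt3L-/- values lay on both sides of them. *Igfbp6*, whose product prefers IGF2, had 23.8, 52.2 and 32.0 CPM in wt and 25.0, 68.9 and 11.7 CPM in flt3L-/- 1, 2 and 3. For both genes flt3L-/- 2 was the highest library and flt3L-/- 3 the lowest. The log2 fold change was −0.47 (95% interval −1.20 to 0.26) for *Igfbp4* and −0.31 (−1.35 to 0.74) for *Igfbp6*. Without pair 1, 2 or 3 that of *Igfbp4* was −0.48, −0.81 and −0.13, and that of *Igfbp6* was −0.51, −0.71 and 0.24. Without pair 2 *Igfbp4* had an unadjusted p under 0.05 in edgeR's quasi-likelihood test, as had 980 of 13111 genes, and an adjusted p of 0.568.

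*Igfbp5*, whose product binds the matrix, had the widest range of the 9 genes, with a highest value 7.91 times the lowest. It had 716, 339 and 246 CPM in wt and 418, 398 and 90.5 CPM in flt3L-/- 1, 2 and 3. The wt library was higher in pairs 1 and 3 and lower in pair 2. Its log2 fold change was −0.66 (95% interval −1.57 to 0.24, unadjusted p of 0.116 in edgeR's quasi-likelihood test), −0.27 without pair 3 and −1.13 without pair 2. Without pair 2 its unadjusted p in that test was under 0.05, as for 980 of 13111 genes, and its adjusted p was 0.513. *Igfbp2* (ENSMUSG00000039323, chromosome 1, 72824503 to 72852474), the neighbour of *Igfbp5* (72857932 to 72874884), had 0 counts in each of the 6 libraries, which puts it under 0.127 CPM.

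The windows of 250 bases before the transcription start are shown for the 4 binding protein genes described above in pairs, so that each pair can be read side by side. They come from RefSeq on GRCm38.p6, which held a window for each of the 10 genes. Capitals mark a TATA box (TATAAA) or a GC box (GGGCGG) on either strand. The E-box CACGTG and the FOXO site GTAAACA were also searched and were absent from these 4 windows.
*Igfbp3*, chr11:7213924-7214173, minus strand: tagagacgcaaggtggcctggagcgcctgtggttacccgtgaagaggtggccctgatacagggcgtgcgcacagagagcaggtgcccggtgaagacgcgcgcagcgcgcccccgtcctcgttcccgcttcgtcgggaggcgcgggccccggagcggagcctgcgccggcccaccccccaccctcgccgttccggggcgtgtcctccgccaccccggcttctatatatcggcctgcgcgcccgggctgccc
*Igfbp7*, chr5:77408046-77408295, minus strand: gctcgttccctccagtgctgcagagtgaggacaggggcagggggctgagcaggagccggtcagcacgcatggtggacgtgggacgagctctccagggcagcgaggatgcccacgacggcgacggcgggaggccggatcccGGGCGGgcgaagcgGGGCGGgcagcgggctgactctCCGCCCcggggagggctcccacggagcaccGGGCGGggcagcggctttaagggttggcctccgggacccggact
*Igfbp4*, chr11:99040994-99041243, plus strand: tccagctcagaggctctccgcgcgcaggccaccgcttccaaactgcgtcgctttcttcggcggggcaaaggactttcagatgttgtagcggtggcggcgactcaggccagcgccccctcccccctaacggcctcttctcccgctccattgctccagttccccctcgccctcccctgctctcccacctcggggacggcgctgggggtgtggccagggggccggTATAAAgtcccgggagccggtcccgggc
*Igfbp6*, chr15:102143936-102144185, plus strand: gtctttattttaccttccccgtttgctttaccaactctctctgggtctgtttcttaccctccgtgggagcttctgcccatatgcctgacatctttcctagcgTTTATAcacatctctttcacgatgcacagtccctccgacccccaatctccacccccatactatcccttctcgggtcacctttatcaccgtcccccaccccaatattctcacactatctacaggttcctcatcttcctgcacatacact
The *Igfbp7* window held 4 GC boxes and the *Igfbp3* window none, although these 2 genes had like profiles. The *Igfbp4* window held 1 TATA box, 28 bases before the RefSeq start. The *Igfbp6* window held 1 match on the opposite strand, 148 bases before the RefSeq start. The windows of the receptor genes, which are not printed, held 2 GC boxes for *Igf1r* and 3 GC boxes and 2 E-boxes for *Igf2r*. Of 32851 RefSeq windows of this length, 32.7% held a GC box, 12.4% a TATA box, 6.02% the E-box and 3.17% the FOXO site. These matches describe letters in the windows only.

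As a share of the summed CPM per kb of the binding proteins, *Igfbp7* took 75.1%, 76.1% and 50.8% in wt 1, 2 and 3 and 79.8%, 58.7% and 74.5% in the libraries labelled flt3L-/-. The means were 67.3% ± 14.4 in wt and 71% ± 11 in flt3L-/- (SD, n = 3 each), a difference smaller than either SD. *Igfbp4* held between 3.95% and 19.9%, *Igfbp5* between 4.82% and 13.3%, *Igfbp3* between 4.70% and 9.20%, and *Igfbp6* between 2.0% and 10.9%. The libraries flt3L-/- 2 and wt 3 had the lowest share of *Igfbp7* and the highest shares of *Igfbp4* and *Igfbp6*. The summed level itself was 994, 1170 and 307 CPM per kb in wt and 1130, 569 and 290 CPM per kb in flt3L-/- 1, 2 and 3.

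**Figure D2:**
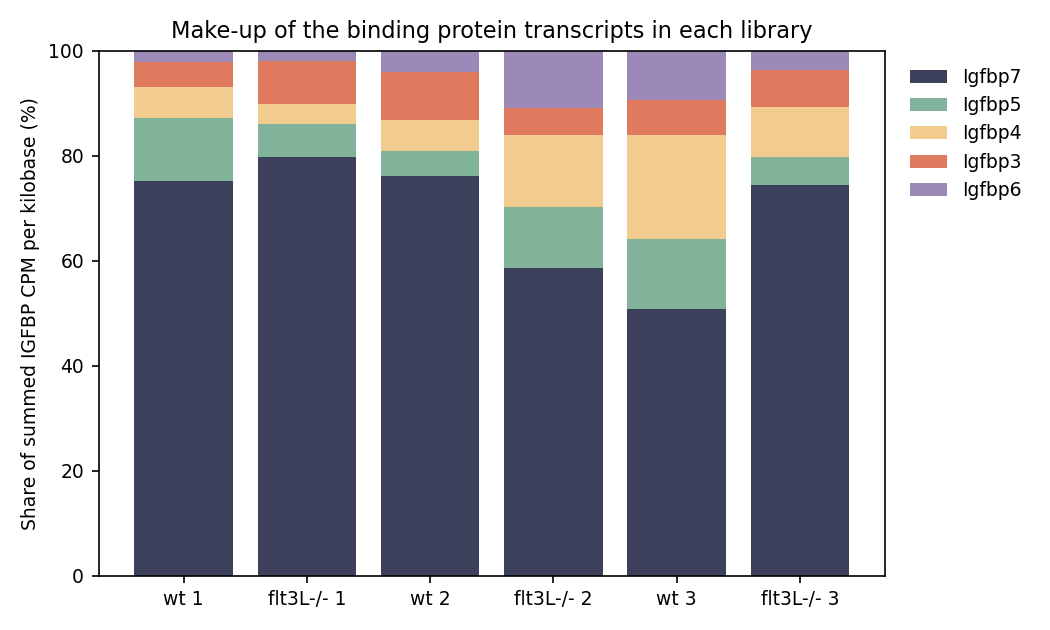
Share of each binding protein gene in the summed IGFBP level (CPM per kb, in percent), with 1 stacked bar for each library, in pairs by sorting date. *Igfbp7* fills between 50.8% and 79.8% of every bar.

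Genotype was then read over the members together, to ask whether the flt3L-/- label went with a different level of the IGF system. None of the 9 tested members had an adjusted p under 0.05 in edgeR's quasi-likelihood test, where 0% of all genes did. An unadjusted p under 0.05 was found for *Igf1* and *Igf2r*, both with a lower level in flt3L-/-, and for 3.59% of all genes (2.49% lower and 1.11% higher). All 9 log2 fold changes were below 0, as were 50% of those over all genes, and their median was −0.31 against −0.00027 over all genes. This count was 9 with each of the 3 other scalings of the libraries, 6 without pair 2 and 8 without pair 3. *Igf1* and *Igf2r* were the members that were lower in 3 of 3 pairs, a pattern that 11.5% of all genes had. No member was higher in 3 of 3 pairs, as 14.2% of all genes were, so that 2 of 9 members and 25.7% of all genes kept 1 direction. For 0 members the groups did not overlap, against 6.45% of all genes. With 3 pairs, an exact two-sided paired permutation test cannot give a p below 0.25, the value it gave for *Igf1* and for *Igf2r*.

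**Figure D3:**
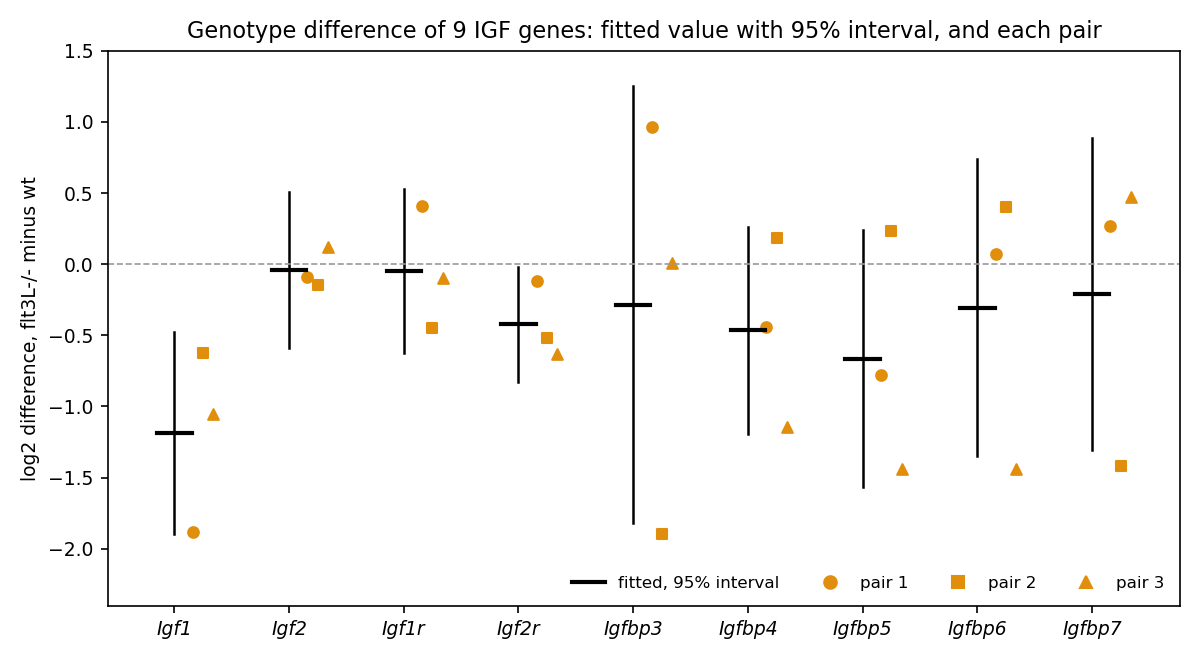
Log2 difference between the libraries labelled flt3L-/- and wt for the 9 tested IGF genes, with the fitted log2 fold change and its 95% interval in black and the 3 within-pair differences in orange. The intervals of *Igf1* and *Igf2r* lie below 0 before adjustment for the number of genes, and the widest interval, of *Igfbp3*, runs from −1.82 to 1.25.

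The summed level of fibroblast markers was lower in flt3L-/- in pairs 1 and 3, as were *Igf1*, *Igf2r*, *Igfbp4* and *Igfbp5*. The summed level of 8 fibroblast genes was 18000, 11070 and 7566 CPM in wt 1, 2 and 3 and 7724, 11590 and 3624 CPM in flt3L-/- 1, 2 and 3, which is a log2 ratio of −1.22, 0.066 and −1.06 in the pairs. All 8 had a log2 fold change below 0, as had 50% of all genes. In edgeR's quasi-likelihood test 3 of them (*Col1a1*, *Col1a2* and *Col3a1*) had an unadjusted p under 0.05, against 3.59% of all genes. The sum is led by *Dcn*, and single genes differed in pair 2. There *Dcn* was at 0.38, *Lum* at 0.37, *Tcf21* at 0.66 and *Dpt* at 0.081. In the same pair *Col1a1* was at −0.40, *Col1a2* at −0.40, *Col3a1* at −0.61 and *Pdgfra* at −0.043. Of the 8 genes, 4 were lower in 3 of 3 pairs, a pattern that 11.5% of all genes had. The 8 pericyte and smooth muscle genes gave log2 ratios of −0.70, 0.16 and −0.85, and the 9 endothelial genes 0.42, −0.29 and 0.27. Of the pericyte and smooth muscle genes, 7 had a log2 fold change below 0 and 3 were lower in 3 of 3 pairs. An unadjusted p under 0.05 in edgeR's quasi-likelihood test was found for 2 of them. The 8 lymphocyte and natural killer (NK) cell genes gave −0.64, 0.045 and −2.82, and 5 of them were lower in 3 of 3 pairs (11.5% of all genes). *Igfbp4*, *Igfbp5* and the sums of the fibroblast, the pericyte and smooth muscle, and the lymphocyte and NK lists had the same signs in the 3 pairs. The other tested members had other signs. The shares of all genes with these signs, or lower in pairs 1 and 3, were not counted. In these bulk libraries fewer cells of a type and less RNA per cell cannot be told apart, and the part of the cell mixture in these values was not tested.

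**Figure D4:**
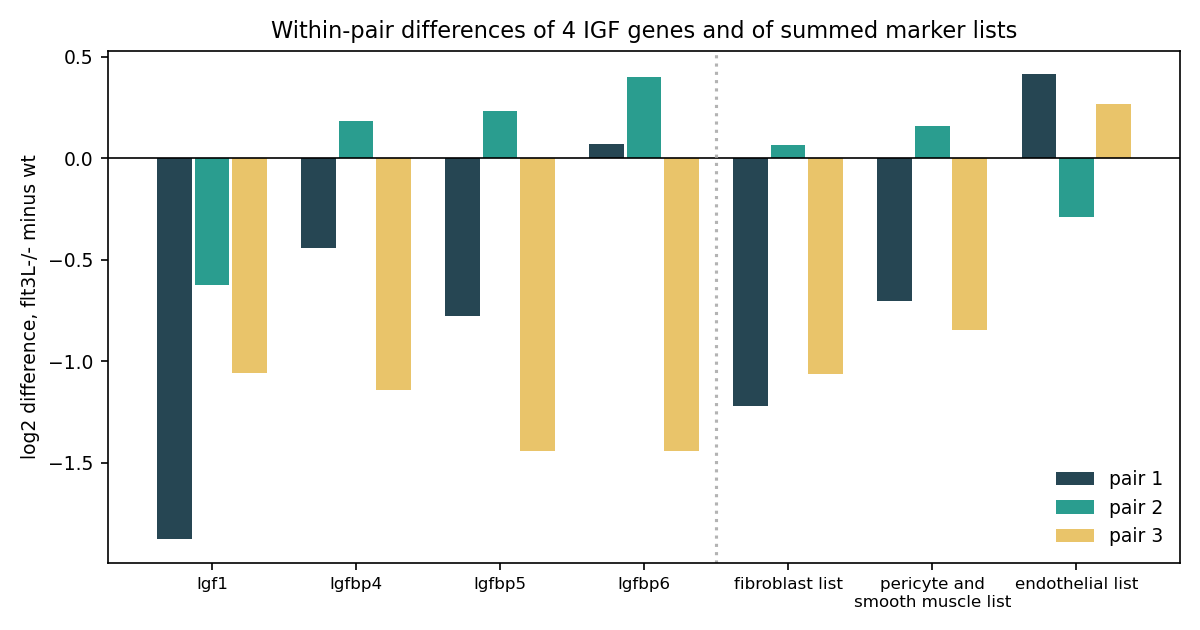
Within-pair log2 differences (libraries labelled flt3L-/- minus wt) of 4 IGF genes, left of the dotted line, and log2 ratios of the summed CPM of 3 marker lists, right of it, with 1 bar for each sorting pair. The *Igf1* bars are at −1.88, −0.62 and −1.06, and the fibroblast bars at −1.22, 0.066 and −1.06.

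Levels were low on the third sorting date for most members. Fitted levels were lowest on the third date for 8 of the 9 members, *Igf2* being the exception, and for 36.7% of all genes. Relative to the first date, the third differed by −2.14 for *Igfbp7*, −1.82 for *Igfbp5*, −1.79 for *Igfbp3*, −0.97 for *Igf1*, −0.96 for *Igf1r* and −0.92 for *Igf2r* on the log2 scale, against a median of 0.034 over all genes. *Igfbp6* had its highest fitted level on the second date, 1.33 above the first. In edgeR's quasi-likelihood test of the sorting date, *Igf2r*, *Igfbp5*, *Igfbp7*, *Igfbp6* and *Igf1r* had an unadjusted p under 0.05, which is 5 of 9 members where 8.28% of all genes had one. The smallest adjusted p of the members was 0.598, and 0% of all genes were called. DESeq2 called *Igfbp7* (adjusted p = 0.00457), *Igfbp5* (adjusted p = 0.00798) and *Igf2r* (adjusted p = 0.0463). Without pair 2, edgeR's quasi-likelihood test called *Igfbp7* (adjusted p = 0.0409). Each date holds 1 library per genotype, and the third date, in 2017, stands for a single sort of each, so date and anything else that differed on that day cannot be told apart.

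The genes with the profile most like a member's were sought by the root mean square difference (RMS) of log2 CPM, centred on each gene's mean, over the 6 libraries. Likeness was sought for the 6 members with an SD above 0.5, and it is a description, since the genes share the same libraries and depth. *Igfbp6* was nearest to *Pi16* (RMS 0.114), *Cd248* (0.160) and *Gpx3* (0.181), of which *Pi16* marks adventitial fibroblasts and *Cd248* stromal cells. *Igfbp5* was nearest to *Ssc5d* (0.118), *Prkg1* (0.124) and *Vav2* (0.140), and *Igf1* to *Sgcd* (0.148), *Eps8l3* (0.154) and *Plxnc1* (0.158). *Igfbp3* was nearest to *Ulk1* (0.0654), *Lsm14b* (0.0965) and *Dusp7* (0.115), and *Igfbp7* to *Ctbp1* (0.0853) and *Samd4b* (0.0973). *Ulk1*, which encodes a kinase that starts autophagy, had 24.65, 55.7 and 10.4 CPM in wt and 45.1, 15.1 and 11.75 CPM in flt3L-/- 1, 2 and 3, close to the pattern of *Igfbp3* in each library. *Igfbp4* was nearest to *Prrt1* (0.101), *Nrcam* (0.115) and *Mcub* (0.116). Some of the genes named here were near the filter of 1 CPM, where counting error weighs more. *Eps8l3*, *Lsm14b*, *Nrcam* and *Prrt1* averaged 1.48, 1.54, 1.68 and 1.93 CPM over the libraries. Between members, the smallest values were 0.224 for *Igf1r* and *Igf2r*, 0.347 for *Igfbp3* and *Igfbp7*, and 0.418 for *Igfbp4* and *Igfbp6*, but 219, 118 and 1498 other genes were closer to the first gene of each pair.

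**Figure D5:**
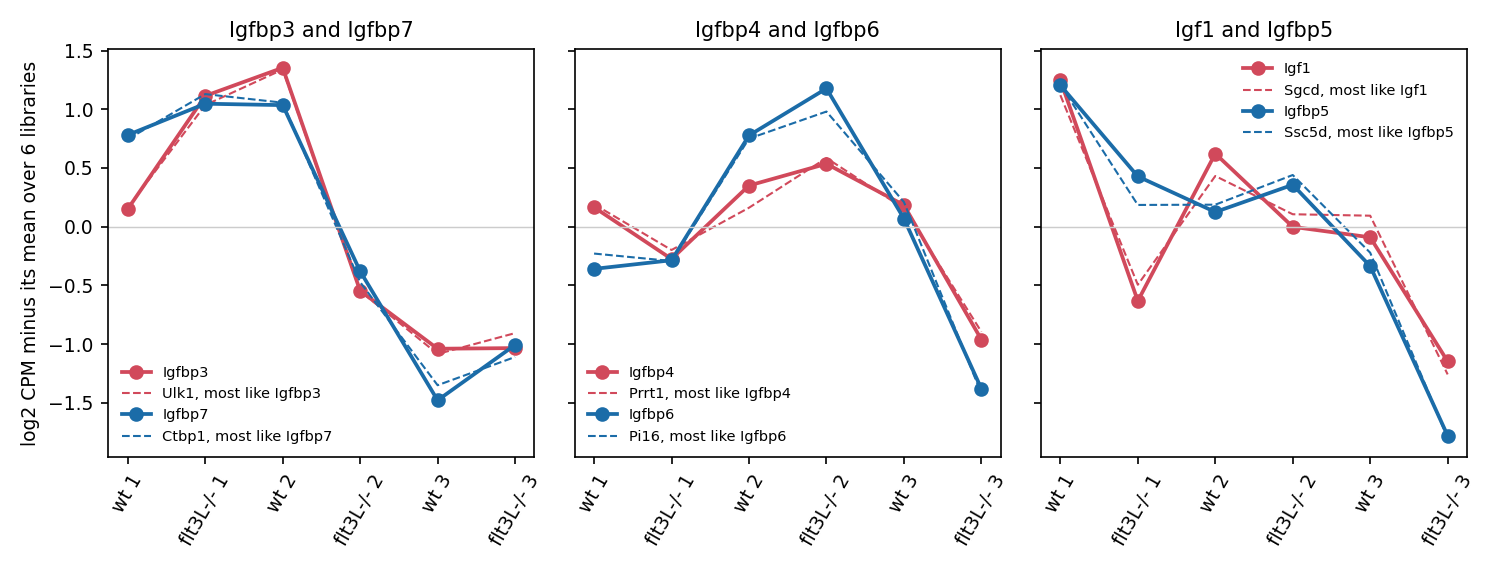
Log2 CPM minus its mean over the 6 libraries for 3 pairs of IGF genes (solid lines) and the gene most like each (dashed lines), in the order of the sorting pairs. The lines only join the libraries. *Igfbp3* and *Igfbp7* are high in wt 1, flt3L-/- 1 and wt 2, *Igfbp4* and *Igfbp6* peak in flt3L-/- 2, and 4 of the 6 genes are lowest in flt3L-/- 3.

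A list of 58 further genes chosen for the pathway was counted, of which 45 were tested. None was called in edgeR's quasi-likelihood test, 34 had a log2 fold change below 0 (50% over all genes) and 11 above 0, and the median was −0.16. Without pair 3, 24 had a value below 0. The list includes *Pdk1* (log2 fold change −0.11, lower in 3 of 3 pairs), which in mouse encodes a pyruvate dehydrogenase kinase and not an IGF adaptor. *Irs2*, an adaptor that links the receptor to PI3K and Akt, was the 1 gene of 45 with an unadjusted p under 0.05, against 3.59% of all genes. It had 79.0, 47.45 and 20.2 CPM in wt and 43.2, 21.7 and 10.01 CPM in flt3L-/- 1, 2 and 3, a within-pair log2 difference of −0.87, −1.13 and −1.01. It was lower in 3 of 3 pairs, as were 10 of the 45 genes and 11.5% of all genes, and its groups overlapped. In edgeR's quasi-likelihood test *Irs2* had a log2 fold change of −1.004 with a standard error of 0.14, an unadjusted p of 0.00101 and an adjusted p of 0.973. DESeq2 called it with an adjusted p of 0.00218. The paper's own edgeR test also called *Irs2* as lower in flt3L-/-, so its call depends on the fit used and not only on the tool. *Irs1*, the other main adaptor, had a log2 fold change of −0.58 (95% interval −1.60 to 0.43), and the insulin receptor gene *Insr* one of −0.12 (−0.88 to 0.64). Of the 10 tested genes of proteases that free the ligands and of their inhibitors, 8 had a value below 0, with *Pappa* at −0.55 (95% interval −2.05 to 0.96). The most abundant genes of the list, *Adamts1*, *Ctsd* and *Socs3*, averaged 369, 232 and 217 CPM per kb and had log2 fold changes of −0.11, 0.078 and 0.062. *Igfals*, whose product joins the complex of IGF and IGFBP3 in blood, had 0.261 to 0.554 CPM, and *Igfbp1* had at most 0.112 CPM, both too low to be tested. The non-coding genes at member loci, outside the test, overlapped between the groups. *H19*, beside *Igf2*, had 0.410 to 1.94 CPM and *Airn*, which overlaps *Igf2r*, 5.36 to 7.20 CPM.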

How the data were processed

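Unstranded SMART-Seq v4 libraries of polyA RNA were read as single ends of 81 bases. The authors mapped the reads to mm10 with STAR 2.5.2a, allowing 10 hits, and deposited raw counts, the number of reads that started in an exon of each gene by QuasR 1.18.0 on Ensembl release 88. A read with several best places went to one at random, so genes with near copies are less certain. Positions, lengths, overlaps and biotypes came from GENCODE M21 (Ensembl 96, GRCm38), which held 50376 of the 50600 genes.

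Protein-coding genes above 1 CPM in 2 or more libraries were fitted in edgeR 4.0.16 (R 4.3.3). The filter, the TMM factors and the terms, genotype and sorting date, follow the study's methods. The function glmQLFit was run with legacy = TRUE, a setting those methods do not name, and the study used an earlier version of edgeR. The paper reports genes called for genotype with such a test, whereas the fit here called 0. The reason for that difference was not tested. The common dispersion was 0.0978, with 2 residual degrees of freedom and 2.79 prior degrees of freedom estimated across genes. P-values were adjusted by Benjamini-Hochberg over all genes tested and called under 0.05. Within-pair differences and profiles used log2 CPM with a prior count of 2. Pairing follows the sorting dates in the labels, and deviations from the group means correlated by 0.180, 0.104 and 0.116 across genes within pairs 1, 2 and 3 and by −0.354 to 0.247 between libraries of different dates. P-values of the main fit measure the spread of the differences within pairs of these pools, since sorting date is a term. Alternatives were DESeq2 1.42.0, 3 other scalings, legacy = FALSE, other filters, all biotypes, no replicate block and each pair left out. The members, the pathway and marker lists and the tests were chosen with earlier results of these data known. By the rule, all members were named, with the 3 most abundant pathway genes, those with an unadjusted genotype p under 0.05, Insr, Irs1, Irs2, Pappa, Igfbp1 and Igfals, and the 3 genes most like each member with an SD above 0.5. One of these genes is not reported here.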

Additional observations from a re-analysis of the deposited data

How the results depend on the processing

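The number of genes, members and pathway genes called for genotype was 0 under 11 of the 12 alternatives. DESeq2 called 21 genes, with 1 member (*Igf1*) and 1 pathway gene (*Irs2*) among them, and for the sorting date it called 389 genes and 3 members. When 1 pair was left out, between 0 and 112 genes and between 0 and 1 members were called for the date, the upper values without pair 2. The log2 fold change of *Igf1* was −1.22 to −1.18 in alternatives that kept all libraries and −1.49 to −0.84 without 1 of the pairs. On leaving out 1 pair, that of *Igf1r* ranged from −0.28 to 0.14, *Igfbp3* from −0.95 to 0.47, *Igfbp6* from −0.71 to 0.24 and *Igfbp7* from −0.57 to 0.35, so their direction depends on 1 pair. That of *Igfbp4* ranged from −0.81 to −0.13 and that of *Igfbp5* from −1.13 to −0.27. The cause of these differences was not tested. The mean share of *Igfbp7* was 69.2% per kb, 67.05% with the longest coding transcript as the length, and 41.8% when CPM was not divided by length, which by construction gives long genes more weight. Without the replicate block, 0 genes were called and 262 had an unadjusted p under 0.05 against 484 with it. A fit with the year of the sort, not its date, chosen after seeing the data, called 0 genes. In that fit 1974 of the 13475 genes, 6 members among them, had an unadjusted p under 0.05 in edgeR's quasi-likelihood test.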
